A study of Mus musculus with 28 samples.

Results

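Transcripts of 10 circadian clock genes, Nr1d1, Nr1d2, Arntl, Clock, Per1, Per2, Per3, Cry1, Cry2 and Dbp, were followed in sorted male germ cells of Stra8 knockout (KO) and wild-type (WT) mice after retinoic acid. The 10 genes were chosen by name, with earlier results of these data known. All 10 were found among the 43253 features used from the deposited count tables. All 10 also passed the filter on low counts, which kept 17519 genes. Both genotypes descended from C57BL/6 x 129s4/SvJae mice. Per the labels, both had been given WIN 18,446, which blocks the synthesis of retinoic acid, over 7 days. Testes were taken at the end of this treatment (0 h) or 12, 18, 48, 72, 96 or 120 h after an injection of retinoic acid. Cells positive for PIWIL2-eGFP, a germ cell reporter, were sorted. The 0 h groups and all WT groups therefore carried the blocker and the reporter too. There were 14 groups of 2 libraries, 7 of KO and 7 of WT cells. The labels give neither the deleted part of Stra8, the age of the mice, the hour of day of injection and collection, nor whether the libraries of a group came from separate animals. The p-values therefore measure only the spread between these libraries, which may be technical.

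In mammals the clock is a feedback loop of transcription. CLOCK and BMAL1, the product of Arntl, bind DNA as a pair at E-boxes and activate the Per, Cry, Nr1d and Dbp genes. PER and CRY proteins then inhibit CLOCK and BMAL1. The nuclear receptors encoded by Nr1d1 and Nr1d2 (REV-ERBα and REV-ERBβ) repress Arntl through ROR elements. The mouse testis is known as an organ in which clock transcripts cycle weakly or not at all over the day. STRA8 is a transcription factor that germ cells make in response to retinoic acid and need for meiosis. Earlier work in mice linked it to Nr1d1 and, through Nr1d1, to autophagy genes such as Ulk1.

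The promoters of 4 of the genes whose levels differed between the genotypes are shown because the loop closes on such sequences. Each window holds the 250 bases before and the 50 bases from the start site (RefSeq, GRCm38.p6), written along the gene's own strand, with motif matches in capitals; the Nr1d1 window held none. The Nr1d1 window lay at chr11:98775328-98775627 and that of Nr1d2 at chr14:18239057-18239356, both on the minus strand. The second listed start site of Arntl lay at chr7:113207261-113207560 and the first of Per1 at chr11:69098699-69098998, both on the plus strand.
Nr1d1: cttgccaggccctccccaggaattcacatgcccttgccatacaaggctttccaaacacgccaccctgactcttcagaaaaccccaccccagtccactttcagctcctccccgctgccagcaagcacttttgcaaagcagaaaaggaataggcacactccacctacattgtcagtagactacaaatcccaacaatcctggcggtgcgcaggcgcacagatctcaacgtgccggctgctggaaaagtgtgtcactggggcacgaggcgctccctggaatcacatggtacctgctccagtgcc
Nr1d2: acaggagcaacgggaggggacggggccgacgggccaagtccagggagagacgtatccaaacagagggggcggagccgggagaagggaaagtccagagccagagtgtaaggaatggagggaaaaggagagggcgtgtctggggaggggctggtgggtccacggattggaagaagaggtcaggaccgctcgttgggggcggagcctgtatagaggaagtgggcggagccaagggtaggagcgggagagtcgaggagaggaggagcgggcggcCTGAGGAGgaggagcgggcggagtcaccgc
Arntl: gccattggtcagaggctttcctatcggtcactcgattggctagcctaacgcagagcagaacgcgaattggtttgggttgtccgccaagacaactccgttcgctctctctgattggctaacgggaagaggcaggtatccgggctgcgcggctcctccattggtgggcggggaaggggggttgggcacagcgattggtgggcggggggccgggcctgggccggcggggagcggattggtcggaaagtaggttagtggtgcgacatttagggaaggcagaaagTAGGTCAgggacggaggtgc
Per1: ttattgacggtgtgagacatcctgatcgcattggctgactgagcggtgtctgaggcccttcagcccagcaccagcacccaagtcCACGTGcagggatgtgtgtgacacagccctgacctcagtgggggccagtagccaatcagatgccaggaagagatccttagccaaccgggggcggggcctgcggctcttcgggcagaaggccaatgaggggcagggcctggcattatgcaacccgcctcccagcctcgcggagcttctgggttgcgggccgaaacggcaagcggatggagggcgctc
5 motifs were searched on both strands in the 13 start-site windows of the 9 members with an entry, which leaves out Per2; no match of one motif overlapped a match of another. The E-box CACGTG was found in Per1, at position -166 from the start site, and in Cry1, at position -60, and it occurs in 7.15% of 32851 promoters of this length. The ROR element core TAGGTCA was found in Arntl, at position 31, and occurs in 2.61% of promoters. The D-box, searched as TTATGTAA or TTACGTAA and bound by DBP and its relatives, was found at 2 places in Per3 and occurs in 1.06% of promoters. The cAMP response element TGACGTCA was found in none of the 13 windows and occurs in 1.79% of promoters. The motif CNCCTCAG, reported for DNA bound by STRA8 in mouse, was found in Nr1d2, at position 21, and occurs in 7.94% of promoters. A match is only the presence of these letters, and a window without one says nothing about the factor.

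The libraries differed in depth and in a few other measures. Total counts were 913055 to 9507928 in KO and 5752475 to 10135820 in WT libraries. Of the KO libraries 3, replicate 2 at 72, 96 and 120 h, were shallow with 913055 to 1078460 counts. Levels are given in CPM, counts per 1000000 counts of the library, for replicates 1 and 2. For the 3 shallow libraries the deposited CPM tables hold other values than the count tables. Turned back into whole reads, those columns held 4117893 to 4474967 reads. They differed from the shallow columns by more than sampling noise (chi-square per degree of freedom 4.63 to 5.51). Which of the deposited values are right is not known. Stra8 itself was in KO at 0.947 and 1.71 CPM (0 h), 30.7 and 25.9 CPM (12 h) and 16.3 and 21.5 CPM (18 h). From 48 h on, KO values were 62.2 and 2.10 CPM (48 h), 0.944 and 1.85 CPM (72 h), 1.07 and 5.48 CPM (96 h) and 1.66 and 0 CPM (120 h). Among the KO libraries the highest value was that of replicate 1 at 48 h. Stra8 in WT was at 7.66 and 15.4 CPM (0 h), 713 and 1043 CPM (12 h) and 746 and 836 CPM (18 h). From 48 h on, WT values were 97.2 and 199.6 CPM (48 h), 66.6 and 57.4 CPM (72 h), 41.0 and 57.4 CPM (96 h) and 17.4 and 30.0 CPM (120 h). Both KO libraries thus lay below both WT libraries at every time, with a log2 fold change of -4.35 ± 0.39 (SE) over the 7 times. The library labelled KO at 48 h, replicate 1, stood apart from the other KO libraries with 62.2 CPM. A count of 0 in the shallow KO library at 120 h allows up to 2.91 CPM (3 counts of the total, counting error only). The 8 germ cell markers summed to 4485 to 6247 CPM in KO and 3236 to 6259 CPM in WT libraries. Of the markers of other testis cells, Leydig (at most 15.8 CPM summed, Insl3 at 0 throughout), macrophage (at most 5.56 CPM), erythroid (at most 6.52 CPM) and spermatid markers (at most 2.35 CPM, Tnp2 at 0 throughout) stayed low in all 28 libraries.

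The clock genes differed between the genotypes by modest amounts over the course as a whole, and rarely at a single time. Averaged over the 7 times, 6 of 10 members passed the threshold (edgeR quasi-likelihood test, Benjamini-Hochberg adjusted p under 0.05 over all genes tested). Nr1d1, Arntl and Per1 were higher in KO, and Nr1d2, Clock and Per2 were lower in KO. Over all genes tested 37.5% were called in this comparison, and the 6 of 10 are to be read against that share. The test took all libraries as independent, although WT libraries of 1 replicate number shared deviations across the times (r of 0.258 to 0.517). Its p-values may therefore be too small, which no alternative tested. The median log2 fold change of the members was -0.07 and that of all genes -0.02. At single times, no member was called at 0 h (background 0%), 12 h (1.18%), 18 h (4.14%), 48 h (0.308%) or 96 h (4.47%), 1 was called at 72 h (4.70%) and 2 at 120 h (15.4%). At 0 h no gene of all 17519 was called by edgeR or by DESeq2. There 1193 genes but no member had an unadjusted p under 0.05. At 12, 18, 48 and 96 h 1 member each had an unadjusted p under 0.05 by edgeR, and DESeq2 called 0, 0, 0 and 1 member. With a block for the replicate number in WT, where it pairs the libraries, 7 rather than 3 member differences were called at single times. The additional ones were Per2 at 96 h and Nr1d2, Arntl and Per1 at 120 h. A test of genotype by time interaction called no member (background 0.108%; no member had an unadjusted p under 0.05, and DESeq2 called none). By edgeR this test did not call Stra8 itself either (unadjusted p = 0.126, adjusted p = 0.652). A gene not called may still differ in its course. No member was thus shown to differ between the genotypes in its course over time. Over 10 members and 7 times, both KO libraries lay above both WT libraries in 14 of 70 cases. They lay below in 20, and 36 overlapped. Such separations were not counted over all genes and carry no test. With 2 libraries against 2 they arise often without any difference, which holds for those named per gene below too.

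**Figure D1:**
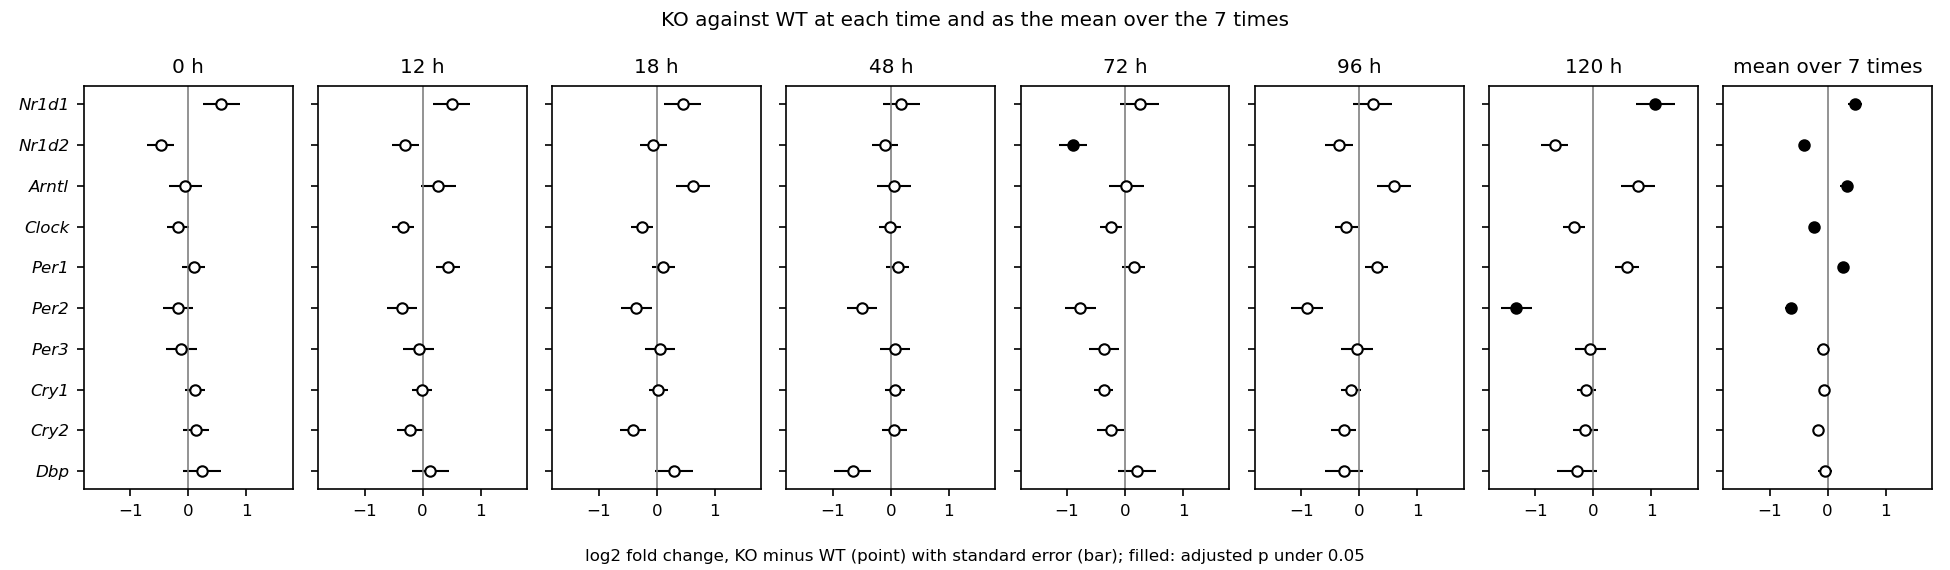
Log2 fold change of each clock gene between KO and WT cells at each time and as the mean over the 7 times, with its standard error; filled points passed the threshold. The mean comparison has 6 filled points, Per2 the lowest at -0.63 and Nr1d1 the highest at 0.47, while the 7 single times have 3.

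Against 0 h, the members moved in both genotypes, most of all Arntl downwards early and Per2 upwards late in WT. In KO cells 1 member was called at 12 h (background 8.57%), 3 at 18 h (8.93%), 1 at 48 h (4.51%) and none at 72 h (0.491%), 96 h (1.75%) or 120 h (0.953%). At these last 3 times 3, 2 and 1 member had an unadjusted p under 0.05 and DESeq2 called none. In WT cells 1 member was called at 12 h (background 10.9%), 2 at 18 h (11.9%), 2 at 48 h (12.8%), 1 at 72 h (12.9%), 3 at 96 h (26.7%) and 6 at 120 h (28.9%). A change of any kind over the course was called for 3 of 10 members in KO (Nr1d2, Arntl and Cry2; background 15.8%) and for 7 of 10 in WT (Nr1d1, Arntl, Clock, Per2, Cry1, Cry2 and Dbp; background 37.3%). Without the shallow KO libraries 2 of the 3 KO calls, Arntl and Cry2, were kept. In WT, Nr1d1 (adjusted p = 0.0654) and Cry1 (adjusted p = 0.0751) were then no longer called, and Per1 was (adjusted p = 0.0441). With the block in WT, 9 members were called over the WT course, Nr1d2, Per1 and Per3 in addition and Nr1d1 no longer.

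**Figure D2:**
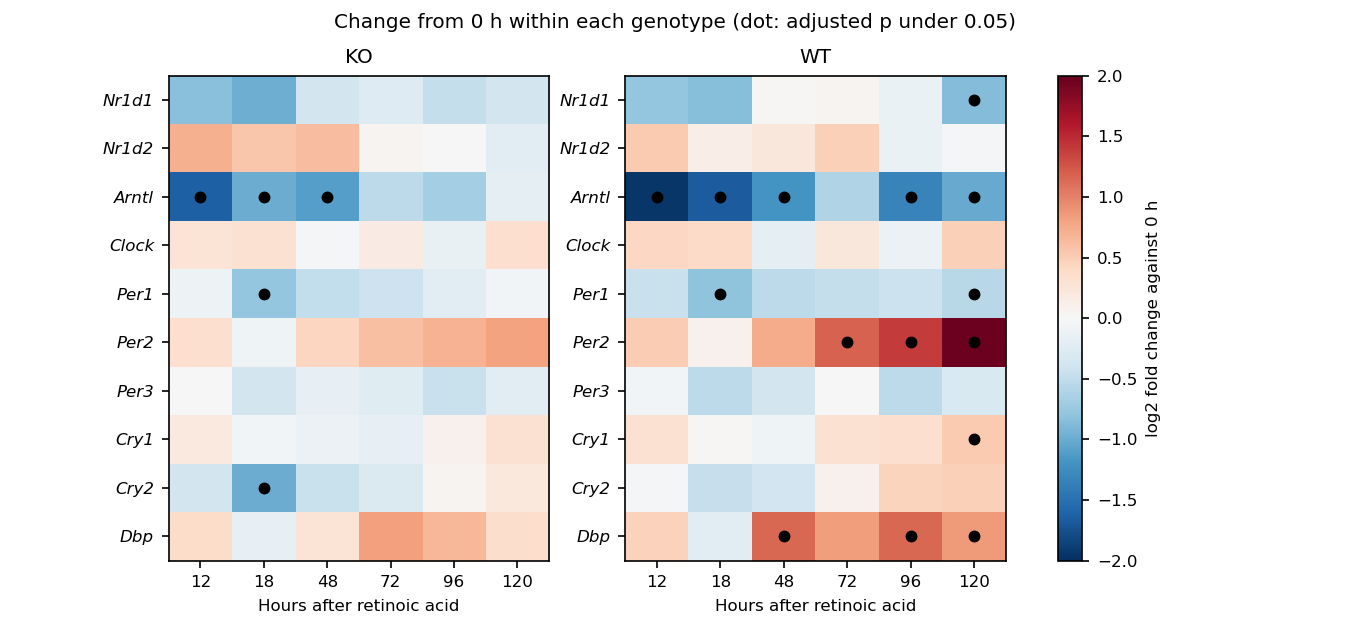
Log2 fold change of each clock gene against 0 h of the same genotype, KO left and WT right, over the 6 later times; dots mark an adjusted p under 0.05. Arntl is darkest blue at 12 h in both genotypes (-1.64 in KO, -1.95 in WT), and Per2 is darkest red at 120 h in WT (1.96).

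Nr1d1 (ENSMUSG00000020889.11, chr11:98767932-98775333, minus strand, GENCODE vM21 on GRCm38, as for the genes below) encodes REV-ERBα, a haem-binding repressor of Arntl. It was higher in KO than in WT over the 7 times by a log2 fold change of 0.47 ± 0.12 (SE, 1.38-fold, adjusted p = 0.00541). The KO libraries lay above both WT libraries at 0, 12, 18, 72 and 120 h. Nr1d1 in KO was at 136 and 113 CPM (0 h), 57.6 and 79.3 CPM (12 h) and 51.6 and 70.2 CPM (18 h). Later KO values of Nr1d1 were 72.8 and 116 CPM (48 h), 109 and 97.4 CPM (72 h), 97.8 and 80.0 CPM (96 h) and 89.8 and 107 CPM (120 h). The KO libraries of 12 and 18 h all lay below those of 0 h. Nr1d1 in WT was at 93.9 and 71.4 CPM (0 h), 52.4 and 43.1 CPM (12 h) and 46.4 and 46.9 CPM (18 h). Its later WT values were 90.9 and 77.4 CPM (48 h), 90.7 and 76.5 CPM (72 h), 41.5 and 111 CPM (96 h) and 53.7 and 33.5 CPM (120 h). The WT libraries of 12 and 18 h also lay below those of 0 h, and the lowest WT value came at 120 h. KO and WT libraries overlapped at 48 and 96 h and stood farthest apart at 120 h. The mean at 120 h was 98.3 ± 12.0 CPM in KO and 43.6 ± 14.3 CPM in WT (SD, n = 2 each), a log2 fold change of 1.07 ± 0.33 (adjusted p = 0.0344). This call at 120 h was lost without the shallow KO library (adjusted p = 0.128) and, leaving out single libraries, without either KO library or WT replicate 2 of that time (adjusted p up to 0.298). The difference over the 7 times passed under all 37 alternatives (log2 fold change 0.38 to 0.59). Against 0 h, Nr1d1 in WT fell at 120 h by a log2 fold change of -0.87 ± 0.32 (adjusted p = 0.048). This call was lost in 8 of 13 alternatives, among them without the shallow KO libraries and with the block in WT (adjusted p = 0.0567). The call of Nr1d1 for any change over the WT course (adjusted p = 0.0353) was lost in 14 of 23, these included (with the block, 0.0508). Nr1d1 at 12 h had a log2 fold change of -0.84 against 0 h in KO (adjusted p = 0.115) and of -0.78 in WT (adjusted p = 0.141). Exons of Nr1d1 overlap those of Thra, a thyroid hormone receptor gene on the other strand, over 263 bases (8.55% of the Nr1d1 exon length). The use of strand in counting is not given in the sources used here. Thra did not pass the threshold between the genotypes, with a log2 fold change of -0.17 at 120 h and of -0.07 over the 7 times. Against 0 h it did change, at -0.83 at 18 h in WT (adjusted p = 0.0471). At 120 h it stood at 1.91 in WT (adjusted p = 1.72e-05) and 1.70 in KO (adjusted p = 0.00234). The part of the overlap in the changes of Nr1d1 over time was not tested.

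**Figure D3:**
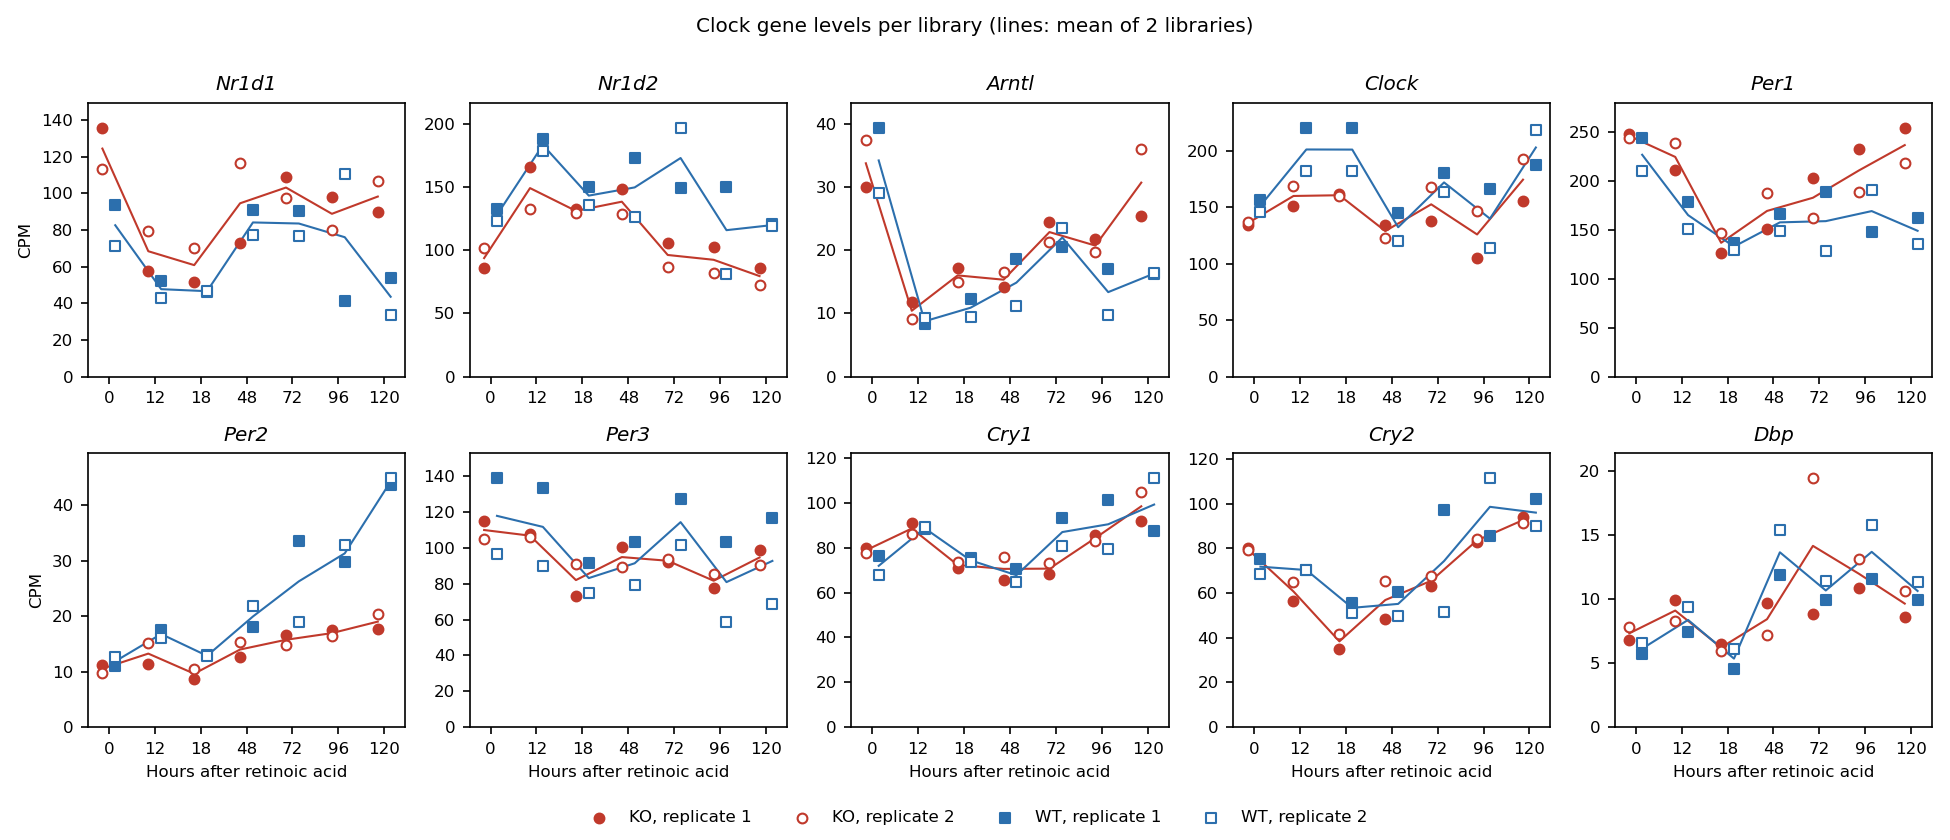
CPM of each clock gene in every library against the time after retinoic acid (times spaced evenly, not to scale), with KO circles left of WT squares, replicate 1 filled and replicate 2 open, and lines through the mean of the 2 libraries. Nr1d1 is higher in KO at 120 h, Arntl drops at 12 h in both genotypes, and Per2 reaches 17.6 and 20.4 CPM in KO and 43.6 and 44.8 CPM in WT at 120 h.

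Nr1d2 (chr14:18204054-18239127, minus strand) encodes REV-ERBβ, the related repressor. It went the other way, lower in KO over the 7 times with a log2 fold change of -0.41 ± 0.09 (0.755-fold, adjusted p = 0.00103), a call kept under all 37 alternatives. Nr1d2 in KO was at 86.0 and 102 CPM (0 h), 166 and 133 CPM (12 h) and 133 and 130 CPM (18 h). After 18 h, KO libraries held 149 and 128 CPM (48 h), 105 and 87.2 CPM (72 h), 103 and 82.1 CPM (96 h) and 86.3 and 72.8 CPM (120 h). The KO libraries of 12, 18 and 48 h all lay above those of the other times. Nr1d2 in WT was at 133 and 123 CPM (0 h), 188 and 179 CPM (12 h) and 150 and 136 CPM (18 h). After 18 h, WT libraries held 173 and 127 CPM (48 h), 149 and 197 CPM (72 h), 150 and 81.5 CPM (96 h) and 121 and 119 CPM (120 h). KO libraries lay below both WT libraries at 0, 12, 18, 72 and 120 h. The difference at 72 h was called at a log2 fold change of -0.89 ± 0.24 (adjusted p = 0.0359), but not without the shallow library (adjusted p = 0.238) nor without any other single library of that time. At 120 h it was -0.67 ± 0.24 (adjusted p = 0.0618), and with the block in WT -0.67 ± 0.22 (adjusted p = 0.0342). Over the KO course Nr1d2 changed (adjusted p = 0.0226; 0.138 without the shallow libraries), with its highest mean at 12 h.

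Arntl (chr7:113207465-113314126, plus strand), which encodes BMAL1, was the member with the largest fall after retinoic acid. Arntl in KO was at 30.0 and 37.5 CPM (0 h), 11.7 and 9.09 CPM (12 h) and 17.1 and 14.9 CPM (18 h). Later KO values of Arntl were 14.2 and 16.5 CPM (48 h), 24.4 and 21.3 CPM (72 h), 21.7 and 19.7 CPM (96 h) and 25.4 and 35.9 CPM (120 h). In the count tables the KO libraries of 12, 18 and 48 h all lay below those of the other times. For the shallow library of 72 h the deposited CPM tables hold 16.8 CPM instead, below replicate 1 of 18 h. Arntl in WT was at 39.3 and 29.0 CPM (0 h), 8.29 and 9.21 CPM (12 h) and 12.3 and 9.45 CPM (18 h). Its later WT values were 18.5 and 11.2 CPM (48 h), 20.4 and 23.6 CPM (72 h), 17.0 and 9.73 CPM (96 h) and 16.3 and 16.3 CPM (120 h). Every 12 and 18 h library of either genotype lay below every 0 h library. At 12 h Arntl fell against 0 h by a log2 fold change of -1.64 ± 0.30 in KO (adjusted p = 0.0011) and of -1.95 ± 0.29 in WT (adjusted p = 8.66e-05), and both calls held under all 13 alternatives. It also fell at 18 and 48 h in KO (log2 fold change -1.0 and -1.10) and at 18, 48, 96 and 120 h in WT (-1.67, -1.19, -1.33 and -1.01). In KO the calls at 18 and 48 h were each lost on leaving out any single library compared (4 of 13 alternatives). At 48 h these libraries include the KO library with 62.2 CPM of Stra8. At 120 h Arntl in KO stood at a log2 fold change of -0.19 ± 0.29 against its 0 h level (adjusted p = 0.862). The shallow KO library of 120 h gave 35.9 CPM from only 37 counts, where the deposited CPM tables hold 22.1 CPM. Between the genotypes, Arntl was higher in KO over the 7 times by 0.33 ± 0.11 (adjusted p = 0.0251), a call lost in 9 of 37 alternatives. Both KO libraries lay above both WT libraries at 18, 96 and 120 h. With the block in WT the difference at 120 h, 0.75 ± 0.27, was called (adjusted p = 0.049). The KO mean was lowest at 12 h for Arntl and at 18 h for its repressor gene Nr1d1, and at 120 h both KO libraries lay above both WT libraries for each of them.

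Clock, the partner of BMAL1, lay at 105 to 193 CPM in KO (median 149) and 114 to 221 CPM in WT (median 174). It was lower in KO over the 7 times by a log2 fold change of -0.23 ± 0.07 (adjusted p = 0.0169, called under all 37 alternatives). Both KO libraries lay below both WT libraries at 0, 12 and 18 h. At 12 h it was at 151 and 169 CPM in KO and at 220 and 182 CPM in WT. At no single time did the genotypes differ past the threshold. The highest KO value, 193 CPM, came from the shallow library of 120 h, where the deposited CPM tables hold 162 CPM. A change over the course was not called in KO (adjusted p = 0.32) and was called in WT (adjusted p = 0.0219), while the interaction test did not show the courses to differ (adjusted p = 1). With the block in WT, Clock at 120 h was called against 0 h, at 0.49 ± 0.17 (adjusted p = 0.0254).

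Per2 (chr1:91415982-91459324, minus strand), which encodes a PER repressor, had the largest difference between the genotypes of all members. Per2 in KO was at 11.3 and 9.79 CPM (0 h), 11.3 and 15.2 CPM (12 h) and 8.71 and 10.5 CPM (18 h). From 48 h on, KO values were 12.7 and 15.3 CPM (48 h), 16.6 and 14.8 CPM (72 h), 17.4 and 16.4 CPM (96 h) and 17.6 and 20.4 CPM (120 h). The highest KO values came at 120 h. Per2 in WT was at 11.1 and 12.6 CPM (0 h), 17.6 and 16.0 CPM (12 h) and 12.9 and 12.8 CPM (18 h). From 48 h on, WT values were 18.0 and 21.8 CPM (48 h), 33.5 and 19.0 CPM (72 h), 29.7 and 32.9 CPM (96 h) and 43.6 and 44.8 CPM (120 h). The genotypes overlapped at 0 h, and at all 6 later times both KO libraries lay below both WT libraries. Per2 was lower in KO over the 7 times by a log2 fold change of -0.63 ± 0.10 (0.646-fold, adjusted p = 3.64e-05, called under all 37 alternatives) and at 120 h at -1.33 ± 0.27 (0.396-fold, adjusted p = 0.00204). The call at 120 h was lost only without KO replicate 1, which leaves the shallow library alone (adjusted p = 0.0575). At 72 and 96 h the differences were -0.77 (adjusted p = 0.0953) and -0.90 (adjusted p = 0.0549), the second being called with the block in WT (adjusted p = 0.034). In WT, Per2 rose against 0 h at 72, 96 and 120 h, by 1.18, 1.40 and 1.96 on the log2 scale. At 120 h the rise was 3.88-fold (adjusted p = 1.04e-05). With the block in WT it also rose at 48 h, by 0.75 ± 0.25 (adjusted p = 0.0374). In KO it stood at 0.80 ± 0.28 against 0 h at 120 h (adjusted p = 0.218). The interaction test over all times did not call Per2 (adjusted p = 0.555, unadjusted p = 0.0705), so that the course of Per2 over time was not shown to differ between the genotypes.

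Per1, the most abundant of the 3 Per genes, lay at 126 to 254 CPM in KO (median 206) and 129 to 243 CPM in WT (median 157). It was higher in KO over the 7 times by a log2 fold change of 0.26 ± 0.08 (adjusted p = 0.0101, lost on leaving out any 1 of 4 KO libraries). Both KO libraries lay above both WT libraries at 0, 12 and 120 h. At 120 h Per1 was at 254 and 218 CPM in KO and at 162 and 136 CPM in WT, a log2 fold change of 0.58 ± 0.20 that missed the threshold (adjusted p = 0.0506). It was called with the block in WT (adjusted p = 0.0235) and without the shallow libraries (adjusted p = 0.0447). At 18 h Per1 fell against 0 h in both genotypes, at -0.78 ± 0.20 in KO (adjusted p = 0.0149) and at -0.80 ± 0.20 in WT (adjusted p = 0.00888). In WT it also fell at 120 h, at -0.55 (adjusted p = 0.039), and with the block in WT at 48 h, at -0.53 ± 0.18 (adjusted p = 0.0435). Per3, a Per gene less needed for the rhythm in mice, lay at 73.1 to 115 CPM in KO and 58.6 to 139 CPM in WT, and its log2 fold change over the 7 times was -0.08 ± 0.10 (adjusted p = 0.578). In WT all 7 values of Per3 in replicate 1 were above those in replicate 2 at the same time, for example 117 and 68.6 CPM at 120 h. Only with the block in WT was Per3 called against 0 h, at 18 h (-0.52 ± 0.16, adjusted p = 0.0226) and at 96 h (-0.56 ± 0.16, adjusted p = 0.00712).

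The cryptochromes, which repress CLOCK and BMAL1 together with the PER proteins, did not pass the threshold between the genotypes at any time. Over the 7 times Cry1 had a log2 fold change of -0.06 ± 0.06 (adjusted p = 0.49) and Cry2 of -0.16 ± 0.08 (adjusted p = 0.146). Cry2 in KO was at 80.2 and 79.1 CPM (0 h), 56.6 and 64.7 CPM (12 h) and 34.9 and 41.9 CPM (18 h). After 18 h, KO libraries held 48.5 and 65.3 CPM (48 h), 63.2 and 67.7 CPM (72 h), 82.8 and 84.3 CPM (96 h) and 94.0 and 91.3 CPM (120 h). Both KO libraries of 18 h lay below all other KO libraries. Cry2 in WT was at 75.2 and 68.3 CPM (0 h), 70.2 and 70.3 CPM (12 h) and 55.6 and 51.2 CPM (18 h). After 18 h, WT libraries held 60.5 and 49.8 CPM (48 h), 97.0 and 51.6 CPM (72 h), 85.7 and 111 CPM (96 h) and 102 and 89.9 CPM (120 h). The lowest KO values came at 18 h, where Cry2 fell against 0 h at -0.99 ± 0.23 (adjusted p = 0.00759), and both KO libraries lay below both WT libraries at 12, 18 and 96 h. Cry2 changed over the course in KO (adjusted p = 0.00978) and in WT (adjusted p = 0.00573). Cry1 lay at 65.5 to 105 CPM in KO and 64.9 to 111 CPM in WT, and rose at 120 h in WT by 0.52 ± 0.17 (adjusted p = 0.021), a call lost on leaving out either 0 h library, WT replicate 2 of 120 h or the filter on low counts.

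Dbp (chr7:45705088-45710203, plus strand), an output gene of the clock that encodes a D-box-binding activator, was among the least abundant members. Dbp in KO was at 6.84 and 7.83 CPM (0 h), 9.96 and 8.27 CPM (12 h) and 6.54 and 5.92 CPM (18 h). Later KO values of Dbp were 9.69 and 7.18 CPM (48 h), 8.87 and 19.5 CPM (72 h), 10.9 and 13.1 CPM (96 h) and 8.63 and 10.7 CPM (120 h). Both KO libraries of 18 h were the lowest, and replicate 2 at 72 h was the highest. Dbp in WT was at 5.72 and 6.55 CPM (0 h), 7.40 and 9.36 CPM (12 h) and 4.57 and 6.13 CPM (18 h). Its later WT values were 11.9 and 15.4 CPM (48 h), 9.97 and 11.4 CPM (72 h), 11.6 and 15.8 CPM (96 h) and 9.96 and 11.3 CPM (120 h). In WT all 8 libraries at 48 h and later lay above all 6 earlier ones. There Dbp rose against 0 h by 1.15 ± 0.32 at 48 h (adjusted p = 0.0173), 1.15 ± 0.32 at 96 h (adjusted p = 0.00906) and 0.85 ± 0.32 at 120 h (adjusted p = 0.0463). With the block in WT the rise at 72 h, 0.83 ± 0.29, was called too (adjusted p = 0.0447), while the call at 120 h was lost in 8 of 13 alternatives. In KO no change from 0 h was called, and the highest value, 19.5 CPM, came from a shallow library. For that library the deposited CPM tables hold 13.6 CPM. The log2 fold change between the genotypes over the 7 times was -0.05 ± 0.12 (adjusted p = 0.794). Exons of Dbp overlap those of Sphk2 on the other strand over 539 bases (18.0% of the Dbp exon length). Sphk2, at 39.0 CPM on average, was more abundant than Dbp, so that without the use of strand their reads cannot be told apart there. In the shallow KO libraries Dbp, Per2 and Arntl rested on as few as 11, 15 and 18 counts.

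Since 48, 72, 96 and 120 h are whole days after the injection and 12 h is not, the 12 h libraries were also set against the mean of those 4 later times. In KO 2 of 10 members were called (background 11.8%): Arntl was lower at 12 h by a log2 fold change of -1.01 ± 0.25 (adjusted p = 0.0101) and Nr1d2 higher by 0.60 ± 0.18 (adjusted p = 0.0303; 0.107 without the shallow libraries). In WT 2 of 10 were called (background 20.0%): Arntl was lower at -0.92 ± 0.25 (adjusted p = 0.00961) and Per2 lower at -0.81 ± 0.21 (adjusted p = 0.0072). Nr1d1 stood at -0.47 ± 0.27 in KO (adjusted p = 0.283) and -0.54 ± 0.26 in WT (adjusted p = 0.163), and Dbp at -0.16 ± 0.26 in KO (adjusted p = 0.89) and -0.54 ± 0.25 in WT (adjusted p = 0.141). The hour of collection is not in the labels, so time since retinoic acid and time of day cannot be told apart in any of these comparisons.

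Per length of annotated exon, the members fell into an abundant and a scarce group. In KO the median level was 36.7 CPM per kb for Per1, 30.4 for Nr1d1, 23.6 for Cry1, 19.2 for Nr1d2, 10.9 for Clock, 10.5 for Cry2, 9.66 for Per3, 2.92 for Dbp, 2.73 for Arntl and 2.56 for Per2. In WT it was 27.8 CPM per kb for Per1, 26.4 for Nr1d2, 24.0 for Cry1, 20.3 for Nr1d1, 12.6 for Clock, 11.1 for Cry2, 10.3 for Per3, 3.33 for Dbp, 3.16 for Per2 and 2.17 for Arntl. Neighbours in either order overlapped in their ranges over the 14 libraries, except Per3 and Dbp, whose ranges were 7.60 to 12.0 and 1.98 to 6.51 CPM per kb in KO and 6.10 to 14.5 and 1.53 to 5.29 CPM per kb in WT.

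**Figure D4:**
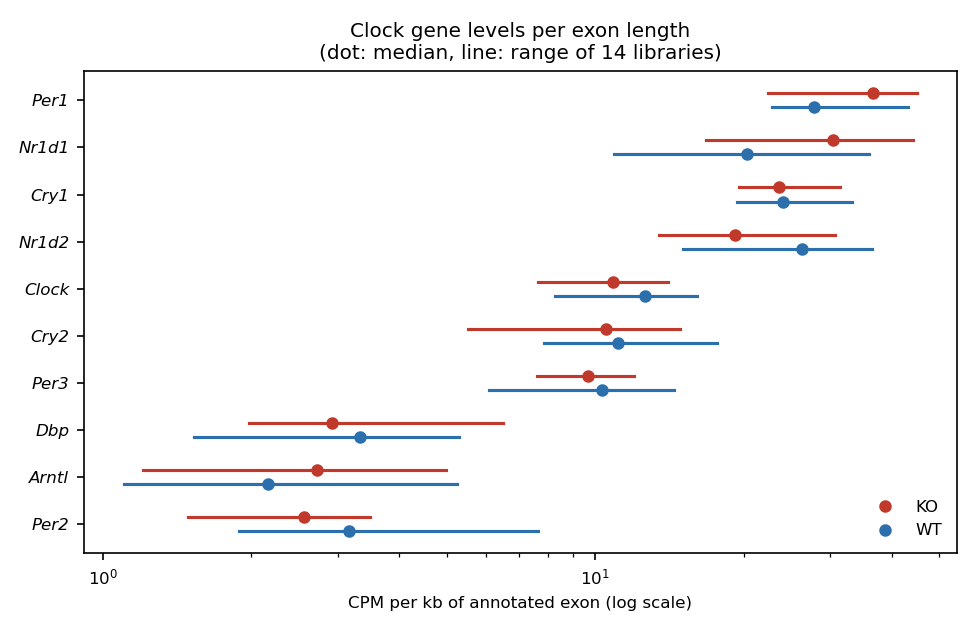
Level of each clock gene in CPM per kb of annotated exon (log axis), KO above WT, with the median and the range of 14 libraries per genotype. Dbp, Arntl and Per2 sit lowest, and Nr1d1 and Nr1d2 exchange places between the genotypes.

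Other genes of the same loops were read against the 37.5% of all genes called between the genotypes over the 7 times. Of 11 further clock factors 10 could be tested, and over the 7 times 3 were higher in KO and 2 lower, with a median log2 fold change of -0.03 beside -0.02 for all genes. Npas2, which can stand in for Clock, was higher by 0.90 ± 0.33 (adjusted p = 0.0349) at means of only 2.10 CPM in KO and 1.12 CPM in WT. Of the paired E-box repressors, Bhlhe41 was higher in KO by 0.70 ± 0.10 (adjusted p = 1.43e-05) and Bhlhe40 lower at -0.86 ± 0.16 (adjusted p = 0.000169). Hlf, a relative of Dbp, was lower in KO at -0.65 ± 0.10 (adjusted p = 2.52e-05), with 18.7 CPM in KO and 30.5 CPM in WT on average. The remaining higher gene was Nfil3, a repressor at D-boxes, at 0.62 ± 0.18 (adjusted p = 0.00922), named here after its values were seen. At 120 h the difference was 1.00 ± 0.29 for Bhlhe41 (adjusted p = 0.0203) and -1.98 ± 0.43 for Bhlhe40 (adjusted p = 0.00366). Hlf was lower in KO at 72 h, at -1.18 ± 0.27 (adjusted p = 0.0159). In WT Bhlhe40 rose by 2.45 ± 0.40 at 48 h (adjusted p = 0.000253) and 2.85 ± 0.40 at 120 h (adjusted p = 2.2e-05), and Hlf rose by 1.15 ± 0.25 at 48 h (adjusted p = 0.00349). Without the shallow libraries 2 of the 10 were higher and 2 lower in KO.

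Of 9 kinases and ubiquitin enzymes that act on clock proteins, none was called between the genotypes over the 7 times by edgeR (background 37.5%) or DESeq2. Their median log2 fold change was 0.04. By edgeR 2 of the 9, Btrc and Usp2, had an unadjusted p under 0.05. Usp2, which encodes a deubiquitinase, rose at 12 h against 0 h in both genotypes, by 0.63 ± 0.18 in KO (adjusted p = 0.028) and by 0.69 ± 0.18 in WT (adjusted p = 0.0113). Of the later times, a count for this list against 0 h is given here only for 96 h in WT. There 6 of the 9 were called (background 26.7%), 1 higher and 5 lower. The higher one was the casein kinase gene Csnk1e, at 0.65 ± 0.21 (adjusted p = 0.0234). Among the lower ones, Csnk2a1, a subunit gene of another casein kinase, stood at -1.50 ± 0.34 (adjusted p = 0.00277). Without the KO library at 48 h, replicate 1, 1 of the 9, Btrc, was lower in KO over the 7 times.

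Of the 11 autophagy genes listed for their link to Nr1d1, 3 were higher and 3 lower in KO over the 7 times (background 37.5%), and 5 did not pass the threshold, with a median log2 fold change of -0.02. Gabarapl1, which encodes a protein of the autophagosome membrane, was higher in KO by 0.91 ± 0.07 (adjusted p = 3.41e-09), with 47.6 CPM in KO and 26.0 CPM in WT on average. The autophagy receptor gene Sqstm1 was higher by 0.54 ± 0.06 (adjusted p = 6.49e-07), and Ulk2, an initiating kinase gene, was lower at -0.51 ± 0.07 (adjusted p = 9.07e-06). The mitophagy receptor gene Bnip3 was lower at -0.71 ± 0.21 (adjusted p = 0.016). Ulk1, the kinase gene earlier linked to Nr1d1, is named here after its values were seen and was lower in KO at -0.40 ± 0.07 (adjusted p = 4.79e-05), with 190 CPM in KO and 249 CPM in WT on average. In WT Ulk1 rose against 0 h at 48, 72, 96 and 120 h, by 0.77, 0.70, 0.87 and 0.69. Gabarapl1 fell against 0 h at 12 and 18 h in both genotypes, at -0.90 and -1.16 in KO and at -1.72 and -1.73 in WT. Gabarapl1 was also higher in KO at 12, 18, 72, 96 and 120 h (log2 fold change 0.86 to 1.31), and Sqstm1 at 72, 96 and 120 h (0.61 to 0.77). The list had members in both directions, and a link of these genes to Nr1d1 was not tested.

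**Figure D5:**
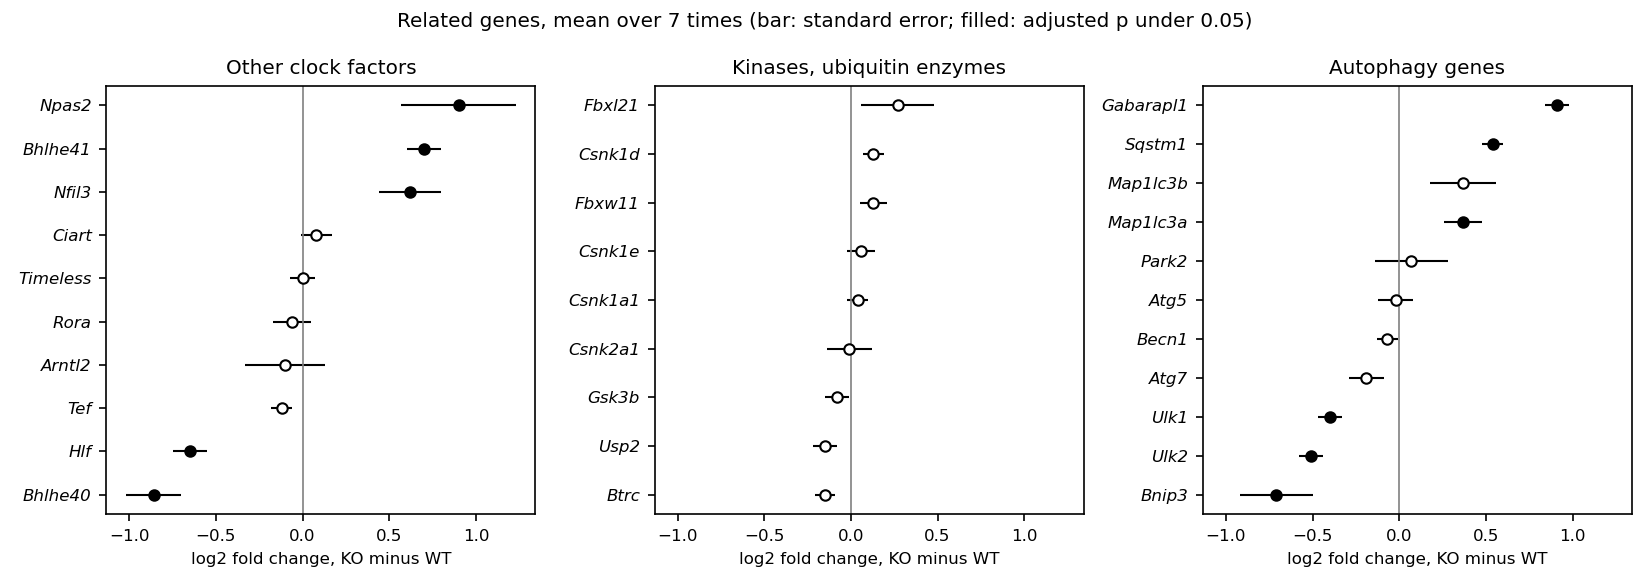
Log2 fold change between KO and WT cells over the 7 times, with its standard error, for other clock factors, clock kinases and ubiquitin enzymes, and autophagy genes; filled points passed the threshold. Gabarapl1 (0.91) and Npas2 (0.90) lie farthest right, and Bhlhe40 (-0.86) and Bnip3 (-0.71) farthest left.

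Genes of handling and of other cell types were set beside the clock genes, again with 37.5% of all genes called over the 7 times. Immediate early genes, which cells switch on within minutes of stimulation or handling, summed to 246 to 540 CPM in KO and 168 to 497 CPM in WT. Of the 12, 5 were higher in KO over the 7 times and none lower (median log2 fold change 0.40), and 4 without the KO library at 48 h, replicate 1, or without the shallow libraries. The larger values were Junb at 0.97 ± 0.31, Egr1 at 0.78 ± 0.12, Jun at 0.72 ± 0.15 and Nr4a1 at 0.51 ± 0.09. At 120 h, where the log2 fold change was 1.07 for Nr1d1 and 0.58 for Per1, Nr4a1 was higher by 1.54 ± 0.25 (adjusted p = 0.000338), Jun by 1.42 ± 0.40 (adjusted p = 0.0206) and Egr1 by 1.41 ± 0.31 (adjusted p = 0.00518). Of the 8 Sertoli cell markers, 4 were higher in KO over the 7 times (2 without the KO library at 48 h, replicate 1, and 3 without the shallow libraries). Their summed level was 26.4 to 200.3 CPM in KO, the highest in the shallow library at 72 h, and 16.4 to 55.5 CPM in WT. Fshr was at 0 in at least 1 library of each genotype. Of the 6 myoid and stromal markers 2, Col1a1 (0.97 ± 0.09) and Myh11 (1.24 ± 0.19), were higher in KO, with a summed level of 115 to 449 CPM in KO and 62.9 to 326 CPM in WT. Of the endothelial markers 1 of 4 tested, Pecam1, was higher in KO (0.64 ± 0.17). Of the 8 germ cell markers 5 were higher and 2, Kit and Dazl, lower in KO, with Sohlh1 at 0.64 ± 0.08, Zbtb16 at 0.53 ± 0.10 and Kit at -0.44 ± 0.13. At 120 h Sall4 was higher in KO by 1.14 ± 0.26 and Sohlh1 by 0.99 ± 0.22. Piwil2, the gene of the sorting reporter, was higher by 0.87 ± 0.21. Zbtb16, given here after its values were seen, was higher by 0.84 ± 0.26. Kit was lower at -1.12 ± 0.36. All of these were called (background 15.4%), while Dazl, Ddx4 and Gfra1 were not. The markers then summed to 4940 and 4679 CPM in KO and 3557 and 3295 CPM in WT. In bulk samples fewer cells of a type and less RNA per cell cannot be told apart. The part of these genes, of depth or of the germ cell stage in the clock gene differences was not tested. Mitochondrial genes took 4.56 to 8.56% of counts in KO libraries, 1.98 to 3.06% in WT libraries of replicate 1 and 3.21 to 6.79% in those of replicate 2, and the part of this share was not tested either.

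As a description, the genes whose mean levels ran most like Nr1d1 over the 14 groups, among 11837 genes with at least 5 CPM in a group, were Eif2c5 (Pearson r = 0.929 on log2 CPM), Micalcl (0.918), Foxo3 (0.914), Unc79 (0.909) and Rbbp6 (0.904). Foxo3, a transcription factor gene, was at 229 CPM in KO and 134 CPM in WT at 120 h, and Rbbp6 at 536 CPM in KO and 390 CPM in WT. For Dbp they were Kdm6b (0.910), Zfpm1 (0.909), Gadd45b (0.903), Brpf3 (0.891) and Ccdc167 (0.889). Among the members, Nr1d1 ran with Arntl at r = 0.708, with Per1 at 0.632, against Clock at -0.752 and against Nr1d2 at -0.524, and Dbp ran most closely with Per2 at 0.672. These groups share libraries, depth and the time course, so the values carry no test.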

How the data were processed

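Polyadenylated RNA of 28 libraries was sequenced on an Ion Proton, per the labels. The mouse build mm10 and the programs TopHat, Bowtie and Cufflinks are named in the submitters' processing notes. How reads were assigned to genes or strands, and tool versions, are not given in the sources used here. Read counts by gene symbol were deposited by the authors as a pair of tables, each with 1 library of every group. A further pair, named as FPKM by the authors, held CPM (counts per 1000000): 25 of 28 columns matched a count column scaled to its own total (tolerance 0.001). The design had assumed FPKM. For WT the matching columns had the same number (14), for KO the other number (11). The 3 unmatched KO columns gave whole reads (100% within 0.1 read), used as an alternative only. Because the right KO numbering is unknown, replicate numbers are those of the count tables. Of 43280 features, 27 with date-like names were left out.

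CPM in the text is the count over the column total. edgeR 4.0.16 in R 4.3.3 tested the counts with TMM scaling, its default expression filter, 14 group means and robust quasi-likelihood tests. P-values were adjusted by Benjamini-Hochberg over all 17519 genes kept, and called means below 0.05 (tests of 1 contrast were two-sided). Fold changes are on the log2 scale with SE. Alternatives were DESeq2 1.42.0, other scalings, no filter, replicate blocks, recovered reads, and leaving out the 3 shallow KO libraries or each single library. The procedure was tested on simulated data. Replicate numbers paired the WT libraries: deviations from group means correlated at 0.258 to 0.517 over 21 pairs of groups. In KO these correlations ran from -0.138 to 0.567, so that the numbers paired some KO groups but not all. KO and WT of the same time were not paired (-0.129 to 0.0433). A block in WT only was therefore added after seeing the data. Libraries of 1 group differed by more than sampling noise. The chi-square per degree of freedom was 6.67 to 12.2 in KO and 29.7 to 55.9 in WT. This measure grows with depth, and depth differed between the genotypes, so the ranges do not compare spread alone. The tests shared the estimate of spread over all groups, and the part of this difference was not tested.

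The members and gene lists were chosen with earlier results of these data known. From each list, up to 4 called genes per comparison were named by size of fold change, given 1 CPM or more on average in a group. The results of 2 listed genes are not reported here. Adgre1 was not matched to a table entry. Promoters came from RefSeq (GRCm38.p6; 9 of 10 members matched), exon overlaps from GENCODE vM21. Rows that name no gene were left out. In the WT columns of the first count table they held 27.1 to 33.1% of reads (no feature), 0.680 to 0.785% (ambiguous) and 14.3 to 16.2% (not unique).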

Additional observations from a re-analysis of the deposited data

How the results depend on the processing

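The count of members called over the 7 times was 6 and stayed at 5 or 6 under the settings that kept all libraries, and at 4 to 7 on leaving out single libraries. The number of KO minus WT differences called at single times, 3 by the chosen test, was 5 with DESeq2, 5 with recovered reads, 7 with the replicate block in WT only, 6 with the replicate block within genotype and 5 with a common replicate block. It was 1 to 5 on leaving out single libraries. Members called for any change over the KO course, 3, became 5 without the expression filter and 5 with recovered reads (2 to 3 without single libraries). For 12 h against the mean of 48 to 120 h in KO, 2 called members became 1 without the 3 shallow libraries. Leaving out single libraries gave 5 to 19 calls against 0 h in WT (15 in all), 1 to 5 in KO (5 in all), 4 to 9 members for any change in WT (7), 0 for the interaction (0), and 0 to 5 in WT and 0 to 2 in KO for 12 h against the later mean (2 each). The cause of these shifts was not tested, beyond fewer libraries where some were left out. Some differences that were not called turned sign. Dbp between the genotypes over the 7 times, never called, was 0.00 without KO at 72 h, replicate 1. It was -0.05 with all libraries, and leaving out single libraries gave -0.12 to 0.00. Without the shallow libraries 5 further uncalled member differences turned, among them Dbp between the genotypes at 72 h (-0.27, with all libraries 0.20) and Dbp in KO at 12 h against the later mean (0.01, with all libraries -0.16). The calls of Nr1d1, Nr1d2, Clock and Per2 over the 7 times held under all 37 alternatives. Beside the calls named with the block in WT, that replicate block brought Nr1d2 at 12 h against 0 h in KO (adjusted p = 0.0297) and Per1 over the KO course (adjusted p = 0.0169) past the threshold. It changed no other call of a member. Where a group was left with 1 library, that library was assumed to vary like those of the other groups. No alternative counted as error the spread that WT libraries of 1 replicate number share over the times. Scaling by DESeq2 size factors or by column totals moved the median log2 fold change of all genes by at most 0.087. With 2 libraries per group and 913055 to 1078460 counts in the 3 shallow KO libraries, differences of the less abundant Dbp, Arntl and Per2 at single times are limited by depth as well as by replicate number. For these 3 libraries it is also not known which of the deposited values are right.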
